A study of Homo sapiens with 33 samples.

Results

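The genes described here are those of the eukaryotic translation initiation factors, the proteins that bring the ribosome, the initiator tRNA and an mRNA together. They were chosen by name: a probe set counted as a member when the array's annotation gave it a single gene symbol that began with EIF and a digit. The EIF2AK kinases and EIF4EBP1 were left out. This gave 82 probe sets of 39 genes, out of 19065 probe sets with a single symbol and 11963 named genes. One member gene, with 2 probe sets, lies on the Y chromosome and is only counted, so 80 probe sets of 38 genes are described. The name rule also admits EIF4EBP2 and EIF4ENIF1, which encode proteins that bind and restrain eIF4E. It does not admit genes whose probe sets carry several symbols, among them EIF4A1, EIF4A2 and EIF3C: 8 such probe sets were not used.

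RNA was hybridised to Affymetrix GeneChip arrays, 1 for each sample, in 11 groups of 3. The cells were human lines of ALK-positive anaplastic large cell lymphoma, a T cell lymphoma in which a fusion makes the ALK kinase active: Su-DHL1 and TS, the latter subcloned from Sup-M2. In the first experiment every group carried lentiviral constructs for a short hairpin RNA that doxycycline switches on, with the cells sorted for GFP and DsRed. The hairpin A5 is directed at ALK, and A5M is its mutated control. The 7 groups were TS A5 with and without doxycycline (1 microg/ml) at 84 h, TS A5M with doxycycline at 84 h, TS A5 with and without doxycycline at 72 h, and Su-DHL1 A5 with and without doxycycline at 72 h. No A5M group at 72 h or in Su-DHL1, and no A5M group without doxycycline, was analysed here. In the second experiment TS cells were kept for 6 h, either without compound (U) or with 300 nM of A1, of A2 or of A3. A2 and A3 are ALK inhibitors of a pyrrolocarbazole type; the structural difference between the compounds is not stated. A1 is a mock compound in the study's design text but an ALK inhibitor in the sample descriptions, and U is a diluent control in the former and untreated in the latter. The labels do not say whether the 3 samples of a group came from separate cultures, so the p-values take in no more than the spread among these 3, and that may be technical.

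Initiation starts when eIF2, carrying the initiator tRNA, joins eIF1, eIF1A, eIF3 and eIF5 on the small ribosomal subunit. The eIF4 proteins bind the mRNA cap, unwind the leader and recruit this complex, and eIF5B then joins the large subunit. The exchange factor eIF2B recharges eIF2 with GTP, and phosphorylation of eIF2 blocks that step, which slows translation in stressed cells. MYC is known as an activator of several genes of the translation apparatus and binds the E-box CACGTG.

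Because that motif has a known place in the control of such genes, the RefSeq promoter windows (GRCh38.p14, 250 bases before to 50 after a start site) were searched for it. Windows were listed for 32 of the 38 genes, 44 windows in all; EIF3A, EIF3E, EIF3G, EIF3H, EIF3L and EIF2S2 had no entry. CACGTG, which reads the same on both strands, was in 10 of the 44 windows (22.7%), against 7.26% of all 35116 windows. By gene it was in 10 of 32, against 12.0% of the 9563 named genes of the array with a window. The amino acid response element TGATGNAA, searched on both strands, was in 0 of the 44 windows, and in 3.62% of all windows. The 250 bases before the start site are shown 5′ to 3′ on the gene's strand for 3 genes that fell and 1 that rose with the inhibitors, each with the motif in capitals, and for EIF5B, a gene that fell in both experiments and whose window has no CACGTG. A match is a description of the letters and not a binding site.
EIF4A3 (chr17:80147129-80147378, minus strand): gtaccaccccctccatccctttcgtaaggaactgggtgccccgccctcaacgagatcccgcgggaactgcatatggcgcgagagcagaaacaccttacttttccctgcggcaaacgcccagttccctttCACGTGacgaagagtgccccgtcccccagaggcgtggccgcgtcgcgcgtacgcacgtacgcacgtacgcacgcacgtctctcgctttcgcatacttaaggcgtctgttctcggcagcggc
EIF2B3 (chr1:44986596-44986845, minus strand): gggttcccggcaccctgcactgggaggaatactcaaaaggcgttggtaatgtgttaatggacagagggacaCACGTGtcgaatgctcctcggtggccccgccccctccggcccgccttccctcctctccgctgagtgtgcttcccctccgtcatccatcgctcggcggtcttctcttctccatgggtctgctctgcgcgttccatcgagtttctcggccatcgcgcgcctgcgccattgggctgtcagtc
EIF4G1 (chr3:184314356-184314605, plus strand): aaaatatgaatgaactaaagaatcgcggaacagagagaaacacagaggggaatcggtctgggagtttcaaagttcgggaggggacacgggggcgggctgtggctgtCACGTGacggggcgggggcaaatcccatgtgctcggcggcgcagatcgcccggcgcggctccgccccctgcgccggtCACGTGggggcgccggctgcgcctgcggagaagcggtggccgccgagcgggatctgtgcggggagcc
EIF4B (chr12:53006206-53006455, plus strand): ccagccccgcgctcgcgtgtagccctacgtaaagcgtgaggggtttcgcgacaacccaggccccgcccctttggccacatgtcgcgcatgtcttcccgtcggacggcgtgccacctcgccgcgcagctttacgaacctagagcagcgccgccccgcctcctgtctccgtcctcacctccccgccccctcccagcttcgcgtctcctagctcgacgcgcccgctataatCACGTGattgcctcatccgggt
EIF5B (chr2:99337139-99337388, plus strand): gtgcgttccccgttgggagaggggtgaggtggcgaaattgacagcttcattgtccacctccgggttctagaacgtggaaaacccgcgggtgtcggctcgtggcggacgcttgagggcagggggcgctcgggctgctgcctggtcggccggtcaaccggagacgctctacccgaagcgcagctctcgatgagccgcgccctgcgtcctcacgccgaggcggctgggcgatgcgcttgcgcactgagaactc
The motif began 121 bases before the start site in EIF4A3, 179 in EIF2B3, 144 and 67 in EIF4G1, and 22 in EIF4B. The other windows with it belonged to EIF1B, EIF5A2, EIF4E, EIF4H, EIF3F and EIF3K.

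Values are MAS5 signal, a linear intensity per probe set that is scaled to a common mean on every array, so a change in the total RNA of a cell would not be seen. In these bulk samples fewer cells of a type and less RNA per cell cannot be told apart. A gene with several probe sets is represented by the brightest one that passed the filter on low signals, and levels are not compared between genes. A total of 37 member genes passed that filter in each experiment. EIF5A2, whose probe set reached the 40th percentile of its array on 2 of 33 arrays, did not. Changes are differences of log2(signal + 11), a scale that makes changes of dim genes look smaller, and ± after a change is the standard error of the limma fit. A gene is called when its adjusted p, limma with Benjamini-Hochberg adjustment over all genes tested, is under 0.05. Outside the hairpin average, genes with values per array were picked among called members whose compared groups did not overlap. For those genes the lack of overlap was therefore fixed by the choice and adds nothing to the call.

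The labels were checked first. ALK signal (probe set 208212_s_at) lay between 201 and 289 on the TS arrays with the induced A5 hairpin at 84 h, between 287 and 389 at 72 h, and between 629 and 651 in Su-DHL1. On the other hairpin arrays it lay between 1652 and 3184. ALK, TNFRSF8, IL2RA, GZMB, PRF1 and CD3D were at or above their array's 40th percentile on all 33 arrays. Of the other T cell markers, CD3E reached it on 31 arrays, CD2 on 18, and CD4 on 25 by 1 probe set and 0 by the other. Of the myeloid, B cell and epithelial markers, CD14, LYZ, CD79B, EPCAM, KRT19 and CDH1 reached it on 0. The rest of these were CSF1R on 33, KRT18 on 25, ITGAX on 17, CD79A on 11 and MS4A1 on 9 by 1 probe set and 0 by the other. The part of these cell types in the results was not tested. Arrays of a group correlated at 0.969 to 0.985, and none stood apart. The ratio of the 3′ to the 5′ control probe set of ACTB, a sign of RNA integrity and labelling, moved with the groups: in TS at 84 h its mean was 1.27 with A5 induced, 1.54 in the uninduced cells and 1.52 in the A5M cells. At 72 h it was 1.32 with and 1.59 without induction in TS, and 1.36 and 1.39 in Su-DHL1. With the compounds it was 1.18 in U, 1.33 in A1, 1.05 in A2 and 1.06 in A3. The same ratio for GAPDH differed less with induction. In TS at 84 h its mean was 0.86 with A5 induced, 0.87 in the uninduced cells and 0.89 in the A5M cells. At 72 h it was 0.83 with and 0.87 without induction in TS, and 0.86 and 0.88 in Su-DHL1. With the compounds the GAPDH ratio was 1.00 in U, 0.98 in A1, 0.89 in A2 and 0.94 in A3. The part of the ACTB ratio in the results was not tested beyond adding it as a covariate. The members' counts with it stand beside the main ones. Where the ACTB ratio moved with the compared groups that fit is less precise, so a lost call need not mean a smaller change.

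When the ALK hairpin was induced, more initiation factor genes fell than rose. In the average over the 3 settings (TS 84 h, TS 72 h, Su-DHL1 72 h), 16 of the 37 genes fell and 4 rose. Among all 9101 genes 50.8% were called, 21.7% lower and 29.1% higher. The median change of the members was -0.06 and that of all genes 0.07. Those that fell furthest were EIF2S1, EIF4A3, EIF5A and EIF5B, at -0.75, -0.73, -0.67 and -0.64, and the 4 that rose were EIF4ENIF1 (0.35), EIF3L (0.17), EIF3K (0.16) and EIF4G2 (0.15). After quantile normalization 14 fell and 7 rose. With the ACTB ratio as a covariate 9 of the 37 genes were called, all lower, while 26.8% of all genes were called. The 9 were EIF4A3, EIF5B, EIF2S1, EIF5A, EIF2B3, EIF3B, EIF1B, EIF3D and EIF1AX. The median of the members was then -0.13 and that of all genes 0.06. Shares of all genes in the fits with this ratio were not split by direction.

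In the separate settings, 13 members fell and 5 rose in TS at 84 h, 10 fell in TS at 72 h and 7 fell in Su-DHL1 at 72 h, with none called higher in the latter 2 (limma; at an unadjusted p under 0.05 these counts were 1 and 0). Of all genes 40.6% were called at 84 h (18.8% lower and 21.8% higher), 34.2% in TS at 72 h (15.2% and 18.9%) and 24.6% in Su-DHL1 (10.7% and 13.9%). The same 7 members were lower in each of the 3 settings: EIF2S1, EIF4A3, EIF5A, EIF5B, EIF3B, EIF2B3 and EIF1AX. Of all genes 8.33% were called lower in each setting, and 9.24% higher. Of the members 0 were called higher in each. The estimate was positive in each setting for 7 members and for 38.1% of all genes. It was negative in each for 17 members and for 25.3% of all genes. Adding the ACTB ratio left 7, 5 and 7 members called in the respective settings, all lower, where 20.9%, 15.7% and 23.6% of all genes were called. Of the 7 members named above, EIF2S1, EIF4A3 and EIF5B were then still called in each setting. EIF1AX and EIF5A were then called in Su-DHL1 alone, EIF3B was not called in TS at 72 h, and EIF2B3 was not called at 84 h. The ratio differed more with induction in TS than in Su-DHL1, and the fit with it was less precise in TS. For EIF2S1 its standard error was 0.16 in TS at 84 h and 0.10 in Su-DHL1. At 84 h EIF2B3 was at -0.44 with the ratio and -0.39 without it, and EIF1AX at -0.40 and -0.51. After quantile normalization Su-DHL1 had 6 members lower and 2 higher.

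**Figure D1:**
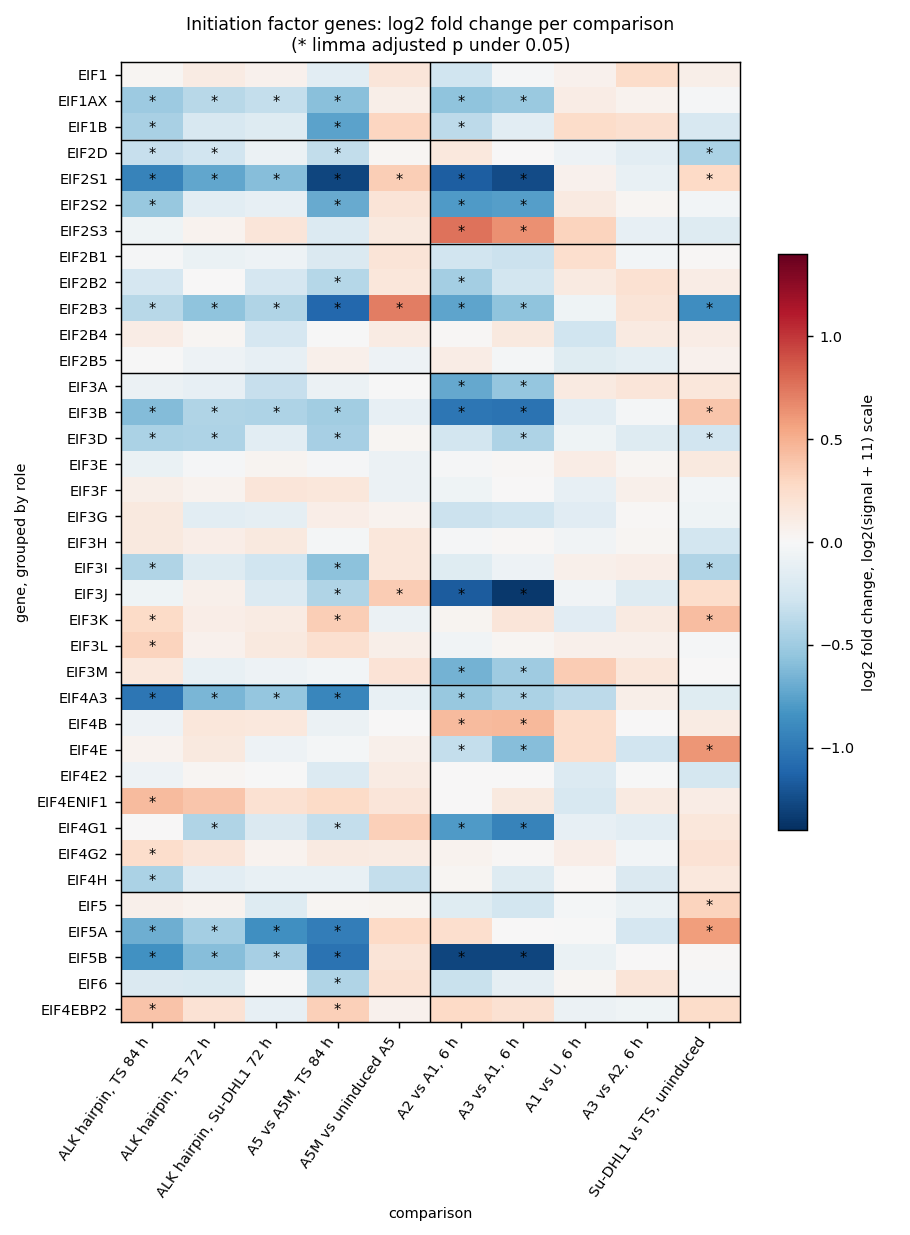
Log2 fold change of the 37 tested genes (rows, grouped by role in the order start codon selection, eIF2, eIF2B, eIF3, eIF4 group, joining with eIF5A and eIF6, other) in 10 comparisons (columns). Blue is lower and red higher in the first-named group, and an asterisk marks a limma adjusted p under 0.05. The rows of EIF2S1, EIF4A3, EIF5B and EIF3B are blue and marked under the hairpin and under A2 and A3, and the columns for A1 against U and A3 against A2 hold no mark.

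Start codon selection is the work of EIF1 and its near copy EIF1B, and of EIF1AX, which encodes eIF1A. EIF1AX signal was 1084, 866 and 874 on the TS arrays with the A5 hairpin induced at 84 h, 1319, 1261 and 1432 without doxycycline and 1547, 1453 and 1246 with A5M. At 72 h it was 949, 1063 and 1077 with and 1319.5, 1424 and 1312 without doxycycline in TS, and in Su-DHL1 949, 1121 and 1097 with and 1317, 1386.5 and 1294 without. All induced A5 arrays of a setting lay below all uninduced ones. The average change was -0.41 ± 0.06 (limma adjusted p = 1.62e-06), and all 4 EIF1AX probe sets fell when each was tested on its own. In Su-DHL1 the EIF1AX call was lost without induced array 1 (-0.26, limma adjusted p = 0.0958) or uninduced array 2 (-0.31, limma adjusted p = 0.0598). EIF1B fell by 0.28 in the average and by 0.46 in TS at 84 h. EIF1 was not called, at 0.06, but its probe sets disagreed: of 6 tested, 212225_at rose (0.48) and the other 5 lay between 0.04 and 0.15 and were not called. Against A5M the same probe set rose (0.65) while 202021_x_at and 212130_x_at fell (-0.34 and -0.26).

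The eIF2 complex carries the initiator tRNA, and its alpha subunit, encoded by EIF2S1, is the one that stress kinases phosphorylate. EIF2S1 signal in TS at 84 h was 678, 712 and 575 with the A5 hairpin induced, 1366.5, 1109 and 1315 without doxycycline and 1778, 1582 and 1463.5 with A5M. The 72 h values were 1169.6, 1108 and 1241 with and 1929, 1932 and 1999.9 without doxycycline in TS, and 1528, 1626.5 and 1537 with and 2336, 2322 and 2450.1 without in Su-DHL1. Every induced A5 array was below every uninduced array of its setting, and the A5M arrays were the highest of the TS arrays at 84 h. EIF2S1 fell 1.91-fold at 84 h (-0.94 ± 0.09, limma adjusted p = 1.50e-08), by 0.73 in TS at 72 h and by 0.60 in Su-DHL1. All 3 of its probe sets fell in the average, and their mean fell less at 84 h (-0.53). EIF2S2, the beta subunit, fell by 0.53 in TS at 84 h, where its signal was 2698 ± 321 against 3912 ± 487 (SD, n = 3), and was not called at 72 h in either line. EIF2S3, the gamma subunit that binds GTP, was at 0.06 in the average and was not called in any hairpin setting. EIF2D, which handles tRNA delivery and ribosome recycling outside the eIF2 complex, fell by 0.22 in the average.

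Of the 5 subunit genes of eIF2B, the factor that recharges eIF2, 2 fell in the average, where 21.7% of all genes fell: EIF2B3, the gamma subunit, and EIF2B2, the beta subunit (-0.16). EIF2B3 signal was 256, 328 and 328 with the A5 hairpin induced in TS at 84 h, 388, 391 and 419.7 without doxycycline and 617, 642 and 732 with A5M. In TS at 72 h it was 336, 379 and 419 with and 517, 562 and 615 without doxycycline, and in Su-DHL1 207, 226 and 240.2 with and 309, 310.4 and 294 without. The groups did not overlap in any setting, and Su-DHL1 had the lower values at 72 h with and without the hairpin. The average change of EIF2B3 was -0.46 ± 0.06 (limma adjusted p = 1.26e-06). Its call at 84 h was lost without induced array 1 (-0.28, limma adjusted p = 0.0571). EIF2B1, EIF2B4 and EIF2B5, the alpha, delta and epsilon subunits, were not called, at -0.06, -0.04 and -0.07, and the call of EIF2B2 was lost when any of 12 single arrays was left out (for example -0.12 without induced TS array 3 at 84 h).

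Of the 12 tested genes of the large scaffold eIF3, 4 fell and 2 rose in the average, a share called close to the 50.8% of all genes, and the range was -0.48 to 0.17. EIF3B encodes a core subunit of the scaffold. Its signal in TS at 84 h was 840.5, 854 and 834 with the A5 hairpin induced, 1263, 1493 and 1124 without doxycycline and 1156, 1156 and 1234 with A5M. The 72 h arrays read 1086, 962 and 893 with and 1410.3, 1246 and 1273 without doxycycline in TS, and 1334, 1270.2 and 1202 with and 1674, 1565 and 1939.7 without in Su-DHL1. The induced arrays were the lower ones in each setting without overlap, and the change was -0.48 ± 0.06 in the average (limma adjusted p = 1.58e-07), with all 3 probe sets lower. EIF3D, a subunit that can itself contact the cap, fell by 0.34, EIF3I by 0.29 and EIF3A, the largest subunit, by 0.17. The EIF3A call was lost in 12 of the 18 fits without 1 array and after quantile normalization (-0.11, limma adjusted p = 0.194), and EIF3A and EIF3I were at -0.07 and -0.18 with the ACTB ratio in the fit.

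EIF3L and EIF3K, subunits of the scaffold's periphery, rose in the average and, of the separate settings, were called in TS at 84 h; the difference of that response from 72 h was not called for either (limma adjusted p = 0.682 and 0.772). EIF3L signal there was 3606, 3468.5 and 3651 with the hairpin and 3316, 2143 and 3358 without doxycycline. The groups did not overlap, but uninduced array 2 stood well below its fellows: without it the change of EIF3L at 84 h was 0.10 (limma adjusted p = 0.457) in place of 0.31. EIF3K, whose brightest probe set may also bind other transcripts (suffix _x_at), was at 0.27, and at 0.17 without such probe sets (limma adjusted p = 0.246). In the average the EIF3L call was lost in 14 of the 18 fits without 1 array, with 0.10 without that same array 2. The EIF3K call was lost in 7 of the 18 and without probe sets of suffix _x_at (0.10, limma adjusted p = 0.204). The other eIF3 genes tested, EIF3E, EIF3F, EIF3G, EIF3H, EIF3J and EIF3M, lay between -0.06 and 0.12 in the average and were not called.

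In the eIF4 group the gene that fell furthest was EIF4A3, a DEAD-box RNA helicase that, unlike the initiation helicase it resembles, is a core part of the exon junction complex. Its signal in TS at 84 h was 1033, 1010.2 and 1006 with the A5 hairpin induced, 1968, 2036 and 2189 without doxycycline and 1653, 1772 and 2433.5 with A5M. At 72 h it was 1423, 1258 and 1353 with and 2072, 2322 and 1925 without doxycycline in TS, and 1302, 1325 and 1203 with and 1897, 1691 and 2032.5 without in Su-DHL1. The groups did not overlap in any setting, and the 3 induced arrays at 84 h were nearly equal. EIF4A3 fell 2.02-fold at 84 h (-1.01 ± 0.11, limma adjusted p = 6.64e-08), by 0.64 in TS at 72 h and by 0.55 in Su-DHL1. Its promoter window is among those shown above with CACGTG.

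EIF4ENIF1 encodes 4E-T, which carries eIF4E into the nucleus and into silenced mRNA particles. Its signal was 172.5, 164 and 163 with the A5 hairpin induced in TS at 84 h, 109, 134 and 116 without doxycycline and 134, 104 and 179.8 with A5M. At 72 h it was 169, 174 and 148 with and 123, 134 and 112 without doxycycline in TS, and 147, 153 and 166 with and 110, 141 and 148 without in Su-DHL1. The induced arrays were higher without overlap in TS at both times, and overlapped the uninduced ones in Su-DHL1; the A5M arrays spanned both. The average change was 0.35 ± 0.09 (limma adjusted p = 0.00182), and the call at 84 h (0.44) was lost without induced array 1 (0.42, limma adjusted p = 0.0634) or uninduced array 1 or 3. EIF4ENIF1, fitted with the ACTB ratio, was at 0.07 in the average (limma adjusted p = 0.806) and at 0.05 at 84 h.

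The cap-binding protein eIF4E and its scaffold showed smaller differences. EIF4E was at 0.04 by its brightest probe set and was not called, while a dimmer one, 201436_at, was lower (-0.33, limma adjusted p = 0.0128). EIF4G1, the scaffold that ties the cap to eIF3, fell by 0.21 in the average and by 0.42 in TS at 72 h; its 2 probe sets gave -0.21 and 0.08 in the average, and their mean was not called at 72 h (-0.17, limma adjusted p = 0.206). EIF4H, a partner of the helicase, fell by 0.23 in the average and by 0.44 in TS at 84 h. Against A5M it was at -0.10 (limma adjusted p = 0.553), and with the ACTB ratio in the fit its average was -0.09. EIF4G2, a scaffold without the cap-binding part, was at 0.15, a call lost in 3 of the 18 fits without 1 array. EIF4B and EIF4E2 were not called, at 0.08 and -0.02. EIF4EBP2, which holds eIF4E away from the scaffold, rose in TS at 84 h, where its signal was 234.5, 218 and 202.5 with the hairpin and 149, 176 and 164 without doxycycline. These groups did not overlap (0.40 ± 0.13, limma adjusted p = 0.0142), and the call was lost without induced array 1 (0.35, limma adjusted p = 0.0614) or uninduced array 1. EIF4EBP2 was at 0.18 with the ACTB ratio in the fit. By the mean of its probe sets it was at 0.43 and not called (limma adjusted p = 0.171).

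Subunit joining needs eIF5B, and eIF5A helps peptide bonds form at difficult sequences. EIF5B signal in TS at 84 h was 358, 355 and 379.9 with the A5 hairpin induced, 733, 656 and 612 without doxycycline and 738, 754 and 774 with A5M. TS arrays at 72 h read 339, 331 and 433 with and 581.5, 587 and 505 without doxycycline, and Su-DHL1 arrays 474, 413 and 336.5 with and 537, 548 and 601 without. No setting had overlapping groups, although the gap was narrow in Su-DHL1. EIF5B fell 1.8-fold at 84 h (-0.85 ± 0.12, limma adjusted p = 1.97e-06), by 0.59 in TS at 72 h and by 0.46 in Su-DHL1. Its 5 passing probe sets all had a negative estimate in the average, from -0.70 to -0.14, and 2 of them were called; their mean at 84 h was -0.57. In Su-DHL1 the call was lost without probe sets of suffix _x_at (-0.41, limma adjusted p = 0.0795).

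EIF5A signal in TS at 84 h was 151, 156 and 189 with the A5 hairpin induced, 255, 274 and 286 without doxycycline and 339.8, 357 and 303 with A5M. At 72 h it was 200.1, 253 and 191 with and 341, 282 and 281 without doxycycline in TS, and 192, 257 and 303 with and 449.9, 455 and 461 without in Su-DHL1. The induced arrays were lower without overlap in all 3 settings, and the uninduced Su-DHL1 arrays were the highest of the 21. The average change of EIF5A was -0.67 ± 0.08 (limma adjusted p = 1.42e-07), with -0.86 in Su-DHL1. Its 3 probe sets disagreed in size: 201123_s_at fell by 0.67, 201122_x_at fell by 0.23, and 213753_x_at was at 0.14 and not called. The mean over them was -0.25 in the average and was not called in TS at 72 h (-0.06, limma adjusted p = 0.77) or in Su-DHL1 (-0.29, limma adjusted p = 0.0719). The call in TS at 72 h was also lost without induced array 3 (-0.40, limma adjusted p = 0.056) or uninduced array 1. EIF5 and EIF6, which trigger GTP hydrolysis on eIF2 and keep the large subunit apart, were not called, at -0.02 and -0.14.

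**Figure D2:**
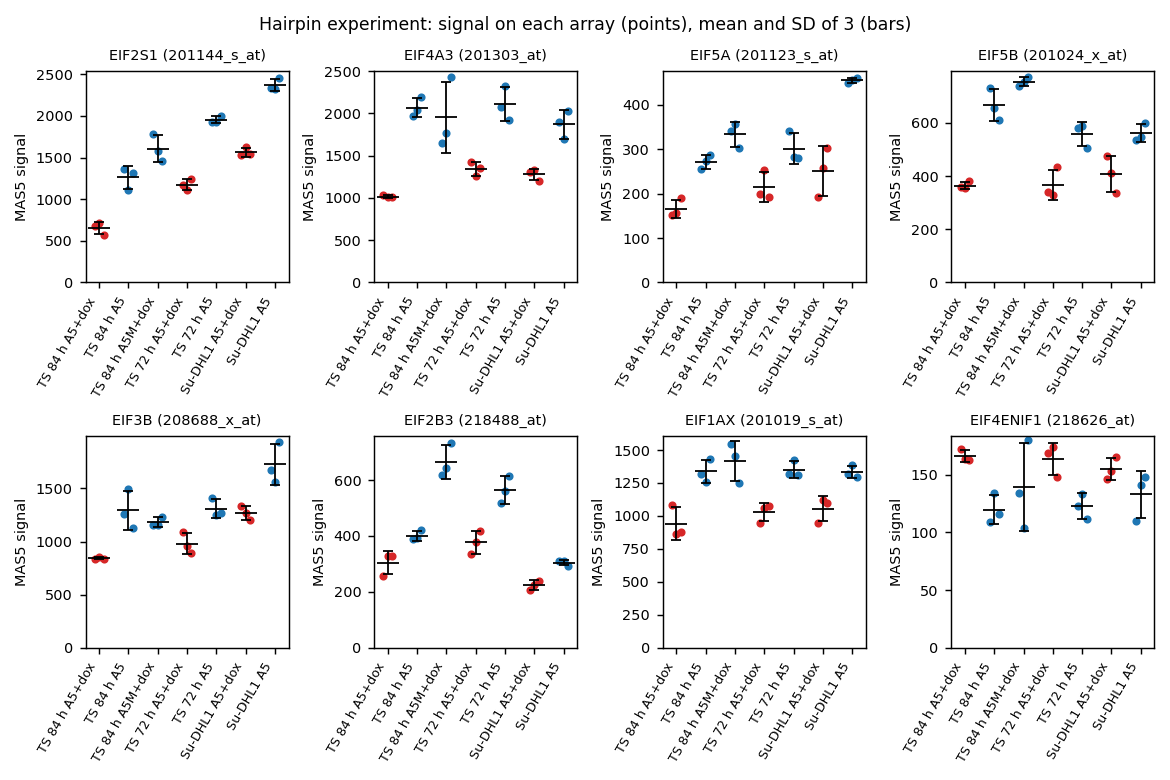
MAS5 signal (y axes, linear from 0) of the 8 called genes of largest average change in the 7 hairpin groups (x axes); points are arrays, and bars are the mean and SD of 3. Red marks the induced A5 hairpin and blue the uninduced and A5M groups. For 7 of the genes the red points lie below the blue ones of the same line and time, as in EIF4A3 at 84 h (means 1016 and 2064), and for EIF4ENIF1 they lie above the uninduced ones in TS.

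The mutated hairpin serves as a control for doxycycline and for carrying an induced hairpin. Against A5M in TS at 84 h, 16 members fell and 2 rose with A5 (18 of 37), where 43.3% of all genes were called, 20% lower and 23.3% higher. The median of the members was -0.19 and that of all genes 0.06. EIF2S1 (-1.28 ± 0.09), EIF2B3 (-1.10 ± 0.11) and EIF5B (-1.03 ± 0.12) fell furthest, by 2.43-fold, 2.15-fold and 2.04-fold, with limma adjusted p of 6.32e-11, 1.26e-08 and 9.48e-08. By the mean of their probe sets EIF2S1 was at -0.79 and EIF5B at -0.62, both still called. EIF3K rose, with 3429.7, 3796 and 4182 on the A5 arrays and 2498, 3233 and 3256.5 on the A5M arrays, which did not overlap (0.35 ± 0.11, limma adjusted p = 0.00951). EIF4EBP2 rose as well, from 165, 156 and 191 with A5M (0.34, limma adjusted p = 0.0355), again without overlap. Without probe sets of suffix _x_at EIF3K was at 0.07 (limma adjusted p = 0.658). The calls of EIF3K and EIF4EBP2 were each lost without 1 of several arrays, for example A5M array 1 (0.22 and 0.32). Both were also lost with the mean of the probe sets and with the ACTB ratio (0.36 and 0.13). The EIF4EBP2 call was further lost after quantile normalization (0.27, limma adjusted p = 0.0879), in a fit of the compared groups alone and with the replicate block. Adding the ACTB ratio left 11 members called, all lower, where 26.4% of all genes were called.

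A5M itself differed from uninduced A5 cells at 84 h in 3 members, all higher, where 6.99% of all genes were called, 3.24% higher and 3.75% lower. EIF2B3 was 1.64-fold higher with A5M (0.71 ± 0.11, limma adjusted p = 0.000179), EIF2S1 was at 0.35 and EIF3J at 0.35. EIF3J, which encodes a loosely bound subunit of eIF3, had 614.5, 677 and 618.5 on the A5M arrays, 476.5, 568 and 448 on the uninduced ones and 468, 485 and 465.5 with A5 induced. The A5M arrays were the highest of these without overlap, and A5 against A5M was called (-0.42 ± 0.10, limma adjusted p = 0.00118). That call was lost with the ACTB ratio in the fit (-0.35, limma adjusted p = 0.131). Since A5 against A5M and A5 against uninduced share the A5 arrays, the values differ by this shift: EIF2B3 fell by 1.10 against A5M and by 0.39 against uninduced cells. With the ACTB ratio in the fit 3 members and 6.53% of all genes were called. In a fit of these groups alone only EIF2B3 was called, and the calls of EIF2S1 and EIF3J were each lost without any 1 of 3 arrays (0.26 for EIF2S1 without uninduced array 2, 0.28 for EIF3J without uninduced array 3).

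The response to the hairpin was compared between the lines and between the times by a test of the difference itself. At 72 h, 0 of 37 members differed between Su-DHL1 and TS by limma, with 1 at an unadjusted p under 0.05, EIF3D (0.29, 95% interval 0.01 to 0.56); 2.89% of all genes were called, 1.68% higher and 1.21% lower. EIF5A had the most negative estimate of that difference, -0.39, with an interval of -0.79 to 0.02. Between 84 h and 72 h in TS, 0 of 37 members differed by limma, with 3 at an unadjusted p under 0.05, and 1.27% of all genes were called, 0.297% higher and 0.978% lower. Those 3 were EIF4G1 (0.42, 0.11 to 0.74), EIF2S2 (-0.39, -0.71 to -0.07) and EIF4A3 (-0.37, -0.70 to -0.05). For EIF2S1 the interval was -0.14 to 0.41 between the lines and -0.48 to 0.07 between the times. The fit with the ACTB ratio called 0 members in either comparison, where it called 1% and 1.26% of all genes.

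Without doxycycline the lines differed in 10 members at 72 h, with 6 higher and 4 lower in Su-DHL1, where 21.2% of all genes were called, 10.8% higher and 10.4% lower. EIF4E, the cap-binding protein, was 804, 843 and 757 in Su-DHL1 and 573, 522 and 469 in TS (0.61 ± 0.13, limma adjusted p = 0.00118). EIF5A was higher by 0.58 and EIF3K by 0.44, the latter with 4264, 3973 and 4379.6 against 3299.9, 3049.6 and 2964.5. None of these groups overlapped, which was a condition for giving their values. EIF2B3 was 1.82-fold lower in Su-DHL1 (-0.87 ± 0.11, limma adjusted p = 2.77e-06). EIF2D was 519, 456 and 484 in Su-DHL1 and 693, 655.5 and 640.1 in TS, a difference of -0.44, and EIF3I was 1409.8, 1421 and 1574 against 1889, 1870.2 and 2138, a difference of -0.42. In both genes all Su-DHL1 arrays lay below all TS arrays, by the same condition. EIF3B (0.39), EIF5 (0.31) and EIF2S1 (0.28) were higher and EIF3D lower (-0.27), with calls that were each lost without at least 1 single array, such as Su-DHL1 array 3 for all 4. The ACTB ratio had means of 1.39 in Su-DHL1 and 1.59 in TS, and with it in the fit 4 members and 11.8% of all genes were called. The calls of EIF5A and EIF3K rested on the probe set used: the mean over the EIF5A probe sets was 0.30 (limma adjusted p = 0.0746), and EIF3K without probe sets of suffix _x_at was 0.32 (limma adjusted p = 0.0504).

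In the inhibitor experiment the comparison against A1, the compound the design text names as mock, sets compounds at the same dose and time side by side. Against A1, 14 of 37 members fell and 2 rose with A2, where 33.4% of all 8594 genes were called, 14.3% lower and 19.1% higher. With A3 13 fell and 2 rose, where 32.7% were called, 14.2% lower and 18.5% higher. The median of the members was -0.26 for A2 and -0.15 for A3, and that of all genes 0.02 and 0.04. EIF5B, EIF3J, EIF2S1 and EIF3B fell by 1.01 to 1.35 on the log2 scale with either compound, and EIF2S3 and EIF4B rose. The comparisons of A2 and A3 share the A1 arrays.

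EIF5B signal was 1067, 1189 and 899 in U, 1021.5, 986.5 and 922.5 in A1, 448, 358 and 378 in A2 and 402, 368 and 412 in A3. The A2 and A3 arrays were all below the U and A1 arrays. EIF5B fell 2.45-fold with A2 (-1.29 ± 0.12, limma adjusted p = 4.12e-07) and 2.44-fold with A3 (-1.29 ± 0.12, limma adjusted p = 4.14e-07), and all 6 of its probe sets fell with A2. Without probe sets of suffix _x_at the change with A2 was -0.67. Its window above holds no CACGTG.

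EIF2S1 signal was 1658, 1985 and 1414 in U, 1974, 1619 and 1634 in A1, 792, 791 and 739 in A2 and 854, 601 and 729 in A3. The groups with inhibitor again lay wholly below the others. EIF2S1 fell 2.23-fold with A2 (-1.15 ± 0.14, limma adjusted p = 8.20e-06) and 2.39-fold with A3 (-1.25 ± 0.14, limma adjusted p = 3.26e-06), and EIF2S2 fell by 0.79 and 0.77. The call of EIF2S2 with A3 rested on its brightest probe set: the other gave 0.49 and was not called, and their mean was -0.14 (limma adjusted p = 0.578).

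EIF2S3, the remaining subunit gene of eIF2, went the other way. Its signal was 352, 253 and 300 in U, 366, 415 and 345 in A1, 675, 717.5 and 539 in A2 and 585, 790.3 and 442 in A3. All A2 and A3 arrays were above all U and A1 arrays, with a wide spread in A3. The rise was 0.76 ± 0.18 with A2 (limma adjusted p = 0.00322) and 0.64 with A3, where the call was lost without A3 array 2 (0.43, limma adjusted p = 0.0657). With the ACTB ratio in the fit it was not called against A1, but was called against U for both compounds.

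Among the eIF3 subunits EIF3J fell furthest. Its signal was 994, 850.2 and 702 in U, 764, 768 and 919 in A1, 356, 396.5 and 320.4 in A2 and 327, 272 and 344 in A3. Every array with A2 or A3 was below every U and A1 array, by a wide margin. EIF3J fell 2.25-fold with A2 (-1.17 ± 0.14, limma adjusted p = 6.47e-06) and 2.55-fold with A3 (-1.35 ± 0.14, limma adjusted p = 1.24e-06), and both of its probe sets fell with A2.

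EIF3B signal was 2448.5, 2754 and 2599.9 in U, 2323, 2517 and 2203 in A1, 1259, 1109.7 and 1113 in A2 and 1024, 1259 and 1150.1 in A3, and the groups with inhibitor were wholly below the others (-1.01 ± 0.11 with A2, limma adjusted p = 1.90e-06). EIF3A fell by 0.72 with A2 and 0.55 with A3, and EIF3M, a subunit of the core, by 0.66 and 0.50. EIF3D was called with A3 (-0.43) and not with A2 (-0.26), and the difference between these was not called (-0.18, 95% interval -0.41 to 0.05). None of the 12 eIF3 genes was called higher with either compound (limma; 0 at an unadjusted p under 0.05).

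In the eIF4 group EIF4G1 fell by 0.79 with A2 and by 0.93 with A3, from a signal of 1184 ± 242 in A1 to 675 ± 84.7 and 607 ± 54.8 (SD, n = 3), with both probe sets lower under A2. EIF4E fell by 0.33 and 0.60, and EIF4A3 by 0.53 and 0.44. The EIF4E call with A2 was lost without any 1 of 4 arrays, for example A1 array 1 (-0.24, limma adjusted p = 0.18). EIF4B, which stimulates the helicase, had 1653, 1504 and 1671 in U, 1795, 1897 and 2049 in A1, 2584, 2671 and 2567 in A2 and 2537, 2668 and 2644.5 in A3. The A2 and A3 arrays were all above the others (0.45 ± 0.10 with A2 and 0.45 ± 0.10 with A3, limma adjusted p = 0.00173 and 0.00166). The windows of EIF4G1, which fell, and EIF4B, which rose, both hold CACGTG.

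EIF2B3 fell by 0.74 with A2 and by 0.57 with A3, and EIF1AX by 0.56 and 0.52. EIF2B2 (-0.48) and EIF1B (-0.36) fell with A2; with A3 they were at -0.26 and -0.15, not called, and the differences between the compounds were not called either (-0.04 to 0.47 and -0.03 to 0.47). The call of EIF1B with A2 was lost without any 1 of 4 arrays, for example A2 array 3 (-0.31, limma adjusted p = 0.0942). EIF5A, which fell with the hairpin, was not called, at 0.24 with A2 (95% interval -0.15 to 0.62) and 0.00 with A3 (-0.38 to 0.39). With the ACTB ratio as a covariate 7 members were called for each compound against A1, all lower, where 15.8% and 16.9% of all genes were called. Common to both lists were EIF5B, EIF3J, EIF3B, EIF4G1, EIF2S1 and EIF2S2, and the rises of EIF4B and EIF2S3 were no longer called.

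**Figure D3:**
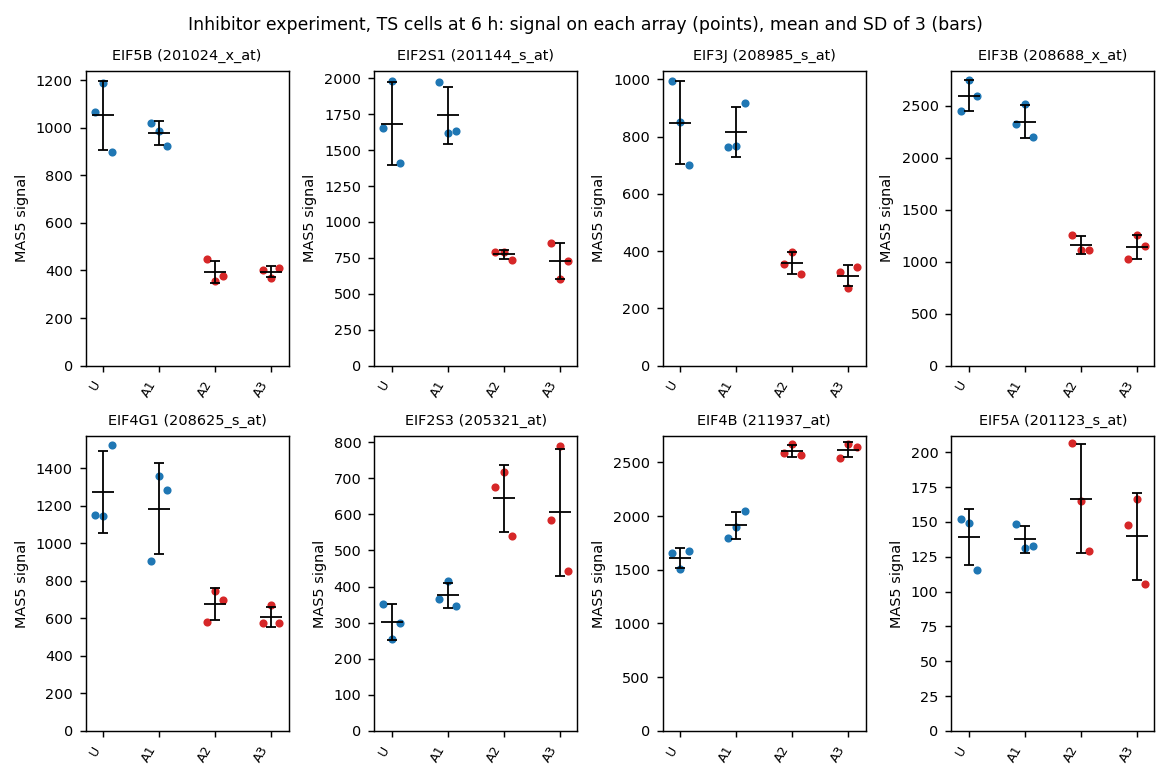
MAS5 signal (y axes, linear from 0) of 8 genes in U, A1, A2 and A3 (x axes), TS cells at 6 h; points are arrays, bars the mean and SD of 3, blue U and A1, red A2 and A3. The first 5 genes are lower in A2 and A3, as in EIF5B (means 977 in A1 and 394 in A2), EIF2S3 and EIF4B are higher, and the EIF5A groups overlap.

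Since A1 is labelled in 2 ways, the inhibitors were also set against U, where 15 members were called for each, 13 lower and 2 higher, with 35.1% of all genes called for A2 (15.4% lower and 19.7% higher) and 33.7% for A3 (14.9% and 18.8%). EIF5B fell by 1.39 with A2 and 1.38 with A3, EIF3J by 1.21 and 1.39, EIF3B by 1.16 and 1.18, and EIF2S1 by 1.10 and 1.20. Without probe sets of suffix _x_at EIF5B was at -0.59 with A2 and -0.79 with A3, both still called. EIF2S3 (1.07 and 0.95) and EIF4B (0.69 and 0.70) rose. Here the ACTB ratio in the fit left 12 and 13 members called (29% and 28.4% of all genes), with EIF4B and EIF2S3 still higher. Between A1 and U 0 of 37 members were called by limma, with 5 at an unadjusted p under 0.05, and 0.0349% of all genes were called (0.0233% higher and 0.0116% lower). The estimates of those 5 were -0.36 for EIF4A3, 0.36 for EIF3M, 0.25 for EIF4B, -0.28 for EIF2B4 and 0.26 for EIF1B.

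A3 and A2, given at the same dose and for the same time, were compared directly. Of the 37 members 0 were called by limma, 1 had an unadjusted p under 0.05 (EIF4E), and 0.151% of all genes were called (0.0582% higher and 0.0931% lower). The estimate for EIF4E was -0.27, lower with A3 (95% interval -0.52 to -0.02, limma adjusted p = 0.518). For the genes that moved most the intervals were -0.26 to 0.26 for EIF5B, -0.48 to 0.11 for EIF3J, -0.40 to 0.20 for EIF2S1, -0.25 to 0.21 for EIF3B, -0.20 to 0.21 for EIF4B and -0.49 to 0.26 for EIF2S3. Over the members the intervals reached from -0.62 (EIF5A) to 0.58 (EIF1), so a missing call does not show that the compounds act alike.

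The hairpin and the inhibitor experiments share no samples. Of the 16 members lower in the hairpin average, 11 were lower with A2 against A1 (68.8%), which is 78.6% of the 14 lower with A2. Over the 8485 genes tested in both, 693 were lower in both, 35.4% of the hairpin list and 56.7% of the A2 list. For A3 the members' shares were 62.5% and 76.9% (10 genes), and those of all genes 36.4% and 58.7%. Some members had unlike values in the hairpin average and with A2. EIF3J was at -0.06 and -1.17, and EIF5A was at -0.67 and 0.24. Against A5M, whose EIF3J arrays lay above the uninduced ones, EIF3J was at -0.42, a call lost with the ACTB ratio in the fit. EIF2S3 was at 0.06 and 0.76, and EIF4B at 0.08 and 0.45. These differences between the experiments, which also differ in time and culture, were not tested.

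**Figure D4:**
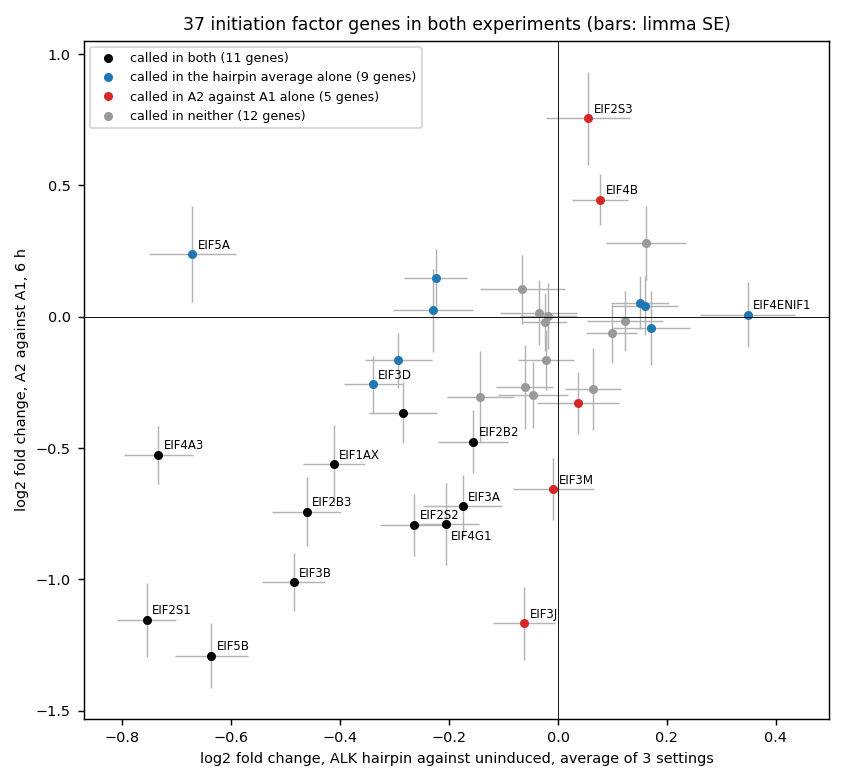
Log2 fold change of each of the 37 genes in the average of the 3 hairpin settings (x axis) and in A2 against A1 at 6 h (y axis), with the limma SE as bars. Black points are the 11 genes called in both, all of them in the lower left, blue the 9 called in the hairpin average alone, red the 5 called with A2 alone and grey the 12 called in neither; EIF5A lies at -0.67 and 0.24, and EIF3J at -0.06 and -1.17.

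Among 25 tested regulators and partners of initiation, of which 1, EIF4EBP2, is also a member, 7 fell and 6 rose in the hairpin average, a share close to the 50.8% of all genes called. MYC, the activator named above, fell by 1.53, and ABCE1, which recycles ribosomes after termination, by 0.91. EIF4EBP1, the eIF4E-binding protein left out of the members, fell by 0.73, and MKNK2, a kinase of eIF4E, rose by 0.75. For MYC and EIF4EBP1 the fall was larger at 84 h than at 72 h in TS by a test of that difference (-0.54 and -0.82, limma adjusted p = 0.0366 and 0.00103). EIF4EBP1 fell by 1.91 against A5M. Of 8 tested elongation and termination factors and their modifiers, 2 fell and 0 rose, where 21.7% of all genes fell (limma; 0 higher at an unadjusted p under 0.05). These were DHPS, which carries out the first step towards the hypusine residue of eIF5A, by 0.58, and GSPT1, the termination factor eRF3, by 0.53.

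With the inhibitors, MYC signal went from a mean of 2590 in A1 to 22.4 in A2 and 9.93 in A3. These signals are so low that the fold change of MYC depends on the pseudocount. In all, 6 of the 25 regulators fell and 4 rose with A2, and 5 fell and 4 rose with A3, where 33.4% and 32.7% of all genes were called. ABCE1 fell by 0.91 and 1.13, MKNK2 rose by 0.81 and 0.76, and TSC2 and TSC1, which together restrain the kinase mTOR, rose by 0.86 and 0.73 with A2 and 0.75 and 0.90 with A3. Of 7 tested elongation and termination factors 2 fell with each compound, where 14.3% and 14.2% of all genes fell: ETF1, the release factor eRF1 (-0.75 and -0.51), and GSPT1 (-0.63 and -1.32). GSPT1 was lower with A3 than with A2 (-0.69, limma adjusted p = 0.0387).

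The CACGTG motif was found in members that fell, that rose and that were not called. Its part in the changes was not tested. Of the members with a promoter window, 5 of the 14 that fell in the hairpin average held it, 1 of the 3 that rose, and 3 of the 14 that were not called. For A2 against A1 these counts were 5 of 12, 1 of 2 and 3 of 17. Of all named genes of the array with a window, 12.0% held it. Among the members that fell in the hairpin average and with A2, EIF4A3, EIF2B3, EIF4G1 and EIF1B held it. EIF1AX, EIF2B2, EIF2S1, EIF3B and EIF5B did not, and EIF2S2 and EIF3A had no window.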

How the data were processed

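The authors deposited MAS5 signal, a linear intensity for each probe set; the submitters' processing notes name MAS5, and its settings are not stated there. The mean after trimming 2% at each end was 200.06 to 200.08 on all 33 arrays, so no further normalization was applied. Array number, 3 per group, limits the precision. Probe sets were named through the platform annotation; 2107 of 22215 had no symbol there and 1043 had several. A probe set passed if 3 or more arrays of the experiment had it at or above the 40th percentile of that array, and the passing probe set of highest mean stood for a gene. limma 3.58.1 (R 4.3.3; lmFit, eBayes with trend) fitted 1 mean per group on log2(signal + 11), over 21 hairpin arrays (9101 genes) and 12 inhibitor arrays (8594 genes), two-sided, with Benjamini-Hochberg adjustment over all genes. The script was tested on simulated data. Members and gene lists were chosen with earlier results of these data known.

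Values per array are given for the 8 called members of largest average hairpin change and, elsewhere, for up to 3 highest and 3 lowest called members whose groups did not overlap, and for up to 4 called genes of a regulator list their change; other values are counts and ranges. EIF2S2, EIF4G1, TSC1 with A2, TSC2 with A3, the genes that missed the threshold and single probe sets were named after their values were seen. Replicate numbers are shared between groups, but correlations of same-numbered deviations lay between -0.184 and 0.089, so they were not taken as pairs. Some arrays of unlike number correlated more strongly, such as U array 3 with A1 array 2 (0.289) and U array 1 with A1 array 2 (-0.264). The source of these correlations was not tested, and the main fit does not model them. Alternatives were pseudocounts of 1 and 32, no filter, quantile normalization, other rules for the probe set, the compared groups alone, the ACTB 3′ to 5′ ratio as a covariate, a replicate block and leaving out each array. Testing every probe set was added after seeing the data. Python 3.11.15 with pandas 2.3.3 and matplotlib 3.10.9 were used.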

Additional observations from a re-analysis of the deposited data

How the results depend on the processing

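The number of members called stayed within 1.5 times its value for every comparison under both pseudocounts, no filter, quantile normalization, the mean of the probe sets, the omission of probe sets with suffix _x_at, the replicate block and, with each gene still counted by its brightest probe set, an adjustment over all probe sets. Counted as probe sets, 31 of 76 were called in the hairpin average and 34 of 78 with A2 against A1. With the ACTB ratio as a covariate it fell to 9 for the hairpin average, 7 in TS at 84 h, 5 in TS at 72 h, 11 against A5M, 4 between the uninduced lines, and 7 each for A2 and A3 against A1. The ratio moved with these groups, which makes that fit less precise, so a lost call need not mean a smaller change. In a fit of the compared groups alone, A5M against uninduced A5 gave 1 call. Leaving out 1 array at a time gave 16 to 20 calls in the hairpin average, 12 to 16 in TS at 84 h, 8 to 10 at 72 h, 6 to 8 in Su-DHL1, 16 to 21 against A5M, 2 to 4 for A5M against uninduced, 7 to 9 between lines, 14 to 16 for A2 and for A3 against A1, and 12 to 14 and 12 to 16 against U.

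Replicate numbers did not mark pairs; with the replicate block the counts were 19 in the hairpin average, 17 in TS at 84 h, 9 in TS at 72 h, 7 in Su-DHL1, 17 against A5M, 11 between the uninduced lines, 16 for A2 and 15 for A3 against A1. Single genes were followed under the alternatives for all 37 members in the hairpin average, but elsewhere only for members called in the main fit. Outside that average a gained call could therefore not be counted, nor a sign change of an uncalled gene. Of the 2904 values followed, 2626 kept direction and call, 249 lost the call, 12 gained it and 17 changed sign. The sign changes counted were all in the hairpin average, in genes not called there. With the mean of the probe sets they were EIF2B4 (0.0092) and EIF4E (-0.13). After quantile normalization they were EIF3G (0.0152), EIF3M (0.0579), EIF4E2 (0.0475) and EIF5 (0.0389). The ACTB covariate changed the sign of EIF2S3 (-0.16), EIF3E (0.0719), EIF3M (0.22) and EIF4E2 (0.0531). With 1 array left out EIF3M ranged from -0.0478 to 0.0226 and EIF4E2 from -0.0394 to 0.0155. The causes were not tested. With 3 arrays per group and a scaled signal, changes of total RNA are not seen.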
